A study of Mus musculus with 2 samples.

Results

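The 78 mouse genes whose symbol is Mrpl or Mrps followed by a number encode nearly all proteins of the mitochondrial ribosome. They were found by symbol among the 18434 genes that a probe names through its RefSeq accession, and all 78 had at least 1 such probe, 49 of them Mrpl genes and 29 Mrps genes. RNA came from splenic CD4 T cells of wild type C57BL/6 mice, sorted magnetically to a purity over 98%, stimulated through the T cell receptor and CD28 for 2 days and cultured for 3 more. In the Th9+IFNgamma culture the cells received 3 ng/ml of IL-4, 3 ng/ml of TGFbeta and 10 ng/ml of IFNgamma. In the Th9 culture they received 10 ng/ml of IL-4, 3 ng/ml of TGFbeta and 1 µg/ml of an anti-IFNgamma antibody. The conditions thus differ in the IL-4 dose, the added IFNgamma and the antibody, whose parts cannot be told apart. There was 1 single-colour array for each culture, so no value has a replicate, no test was possible, and the labels do not give the number of mice behind a culture.

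The mitochondrial ribosome translates the few messenger RNAs made from mitochondrial DNA, all of which encode subunits of the respiratory chain and ATP synthase. Its proteins are encoded in the nucleus, made on cytosolic ribosomes and imported, and they fall into a large subunit, which forms peptide bonds, and a small subunit, which decodes the messenger. Some descend from the bacterial ribosome, and others were added in mitochondria. Activated T cells build new mitochondria as they grow and divide, and inhibitors of mitochondrial translation limit their effector functions.

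The values below are scaled signals, that is, processed probe intensities brought to a common 75th percentile on both arrays. They compare a gene with itself between arrays and do not rank genes by level. A gene is read by its brightest probe among those that the extraction software flagged as well above background on both arrays. All 78 genes were measured in this way. Their signals ran from 399.6 to 43525 on the Th9+IFNgamma array and from 544 to 39735 on the Th9 array, while the lowest signals that passed as well above background were 11.1 in Th9+IFNgamma and 12.5 in Th9. No mitochondrial ribosomal protein gene was therefore near the detection limit in either culture, and no spot was saturated. In a bulk RNA sample, fewer cells of a type and less RNA per cell cannot be told apart.

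None of the 78 genes was 2-fold apart between the conditions in either direction. Of the 12272 genes measured on both arrays, 5.15% were higher in Th9+IFNgamma by 2-fold or more and 7.42% were lower by as much. Among the 7246 genes whose mean signal lay in the range of the mitochondrial ribosomal protein genes, those shares were 4.37% and 4.39%. The largest differences were 1.53-fold towards Th9+IFNgamma and 1.64-fold towards Th9. The log2 differences (Th9+IFNgamma minus Th9) had an SD across genes of 0.29, against 0.81 over all measured genes and 0.70 over the genes in the same signal range. Genes are not replicates, and these SDs describe the spread between genes on this pair of arrays.

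**Figure D1:**
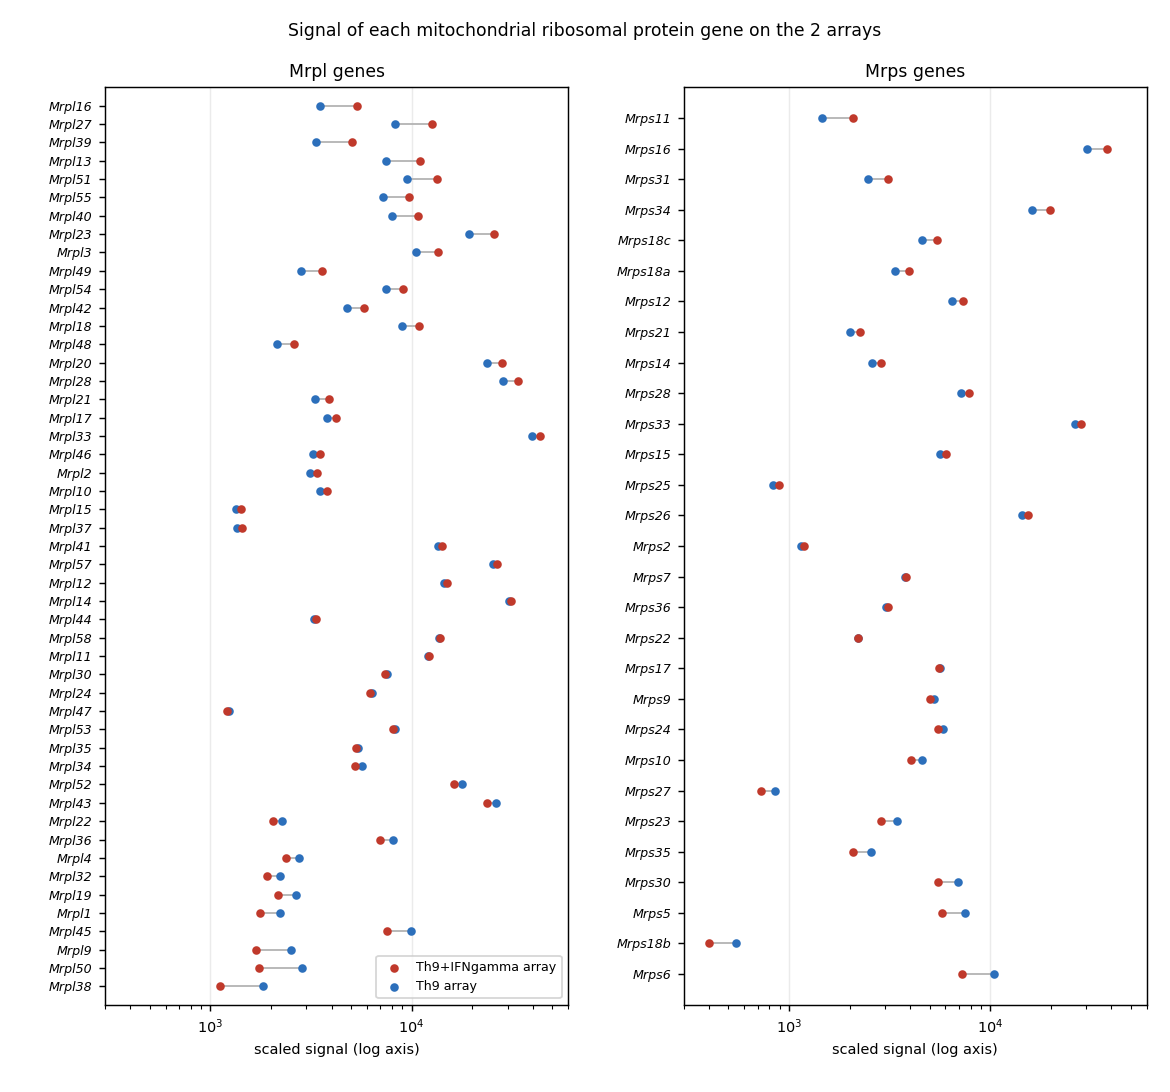
Scaled signal (log axis) of each Mrpl gene (left panel) and Mrps gene (right panel) on the Th9+IFNgamma array (red) and the Th9 array (blue), with genes ordered by their difference. Red and blue points lie close together in every row, the widest gaps being 1.53-fold (Mrpl16) and 1.64-fold (Mrpl38).

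The median log2 difference of the 78 genes was 0.07 (quartiles -0.13 and 0.25), beside -0.01 over all measured genes and 0.05 over those in the same signal range, and it was -0.003 with quantile normalization. Of the 78, 49 were higher in Th9+IFNgamma at any size (62.8%), where the share over all measured genes was 49.6% and over the same signal range 55.6%. At least 1.2-fold differences, a smaller limit used to describe shared shifts, were found for 18 genes towards Th9+IFNgamma and 12 towards Th9. The background was 27.9% of all measured genes higher and 30.3% lower by 1.2-fold, or 29.9% and 23.4% in the same signal range. The 12 lower genes (15.4% of 78) and 18 higher genes (23.1%) both fell under those shares, and 48 genes (61.5%) lay within 1.2-fold, against 41.8% of all measured genes and 46.6% in the same range. The split of 18 higher and 12 lower genes moved with the scaling, to 27 and 7 with median scaling and to 12 and 13 with quantile normalization. The shares over all measured genes moved as well, to 36.3% higher and 23.8% lower with median scaling. With quantile normalization they were 27.5% and 29.5%. Median scaling moved the median of all genes by 0.11 and every gene alike, so it left the median of the mitochondrial ribosomal protein genes at 0.08 above that of all genes. That distance was 0.006 with quantile normalization, 0.03 over genes with a scaled signal of at least 100 and 0.19 without the filter on dim probes.

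The extraction software gives an error for each signal, and those of both arrays were combined into an error of the log2 difference. That error was 0.20 for each of these genes (0.2040 to 0.2043), whatever the signal. A limit of 2 such errors is therefore a fixed fold limit for them and not a noise level measured for each gene. Of the 78, 14 differed by more than 2 such errors, 8 of them higher and 6 lower in Th9+IFNgamma. The share over all measured genes was 39.5%. Some probes are printed 10 times, none of them for the 78 genes, and those with signals as bright as these genes were taken. The log2 differences of their single spots scattered around the mean difference of the probe with an SD of 0.05. That spread covers printing and reading only, and neither figure holds any variation between cultures or mice.

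**Figure D2:**
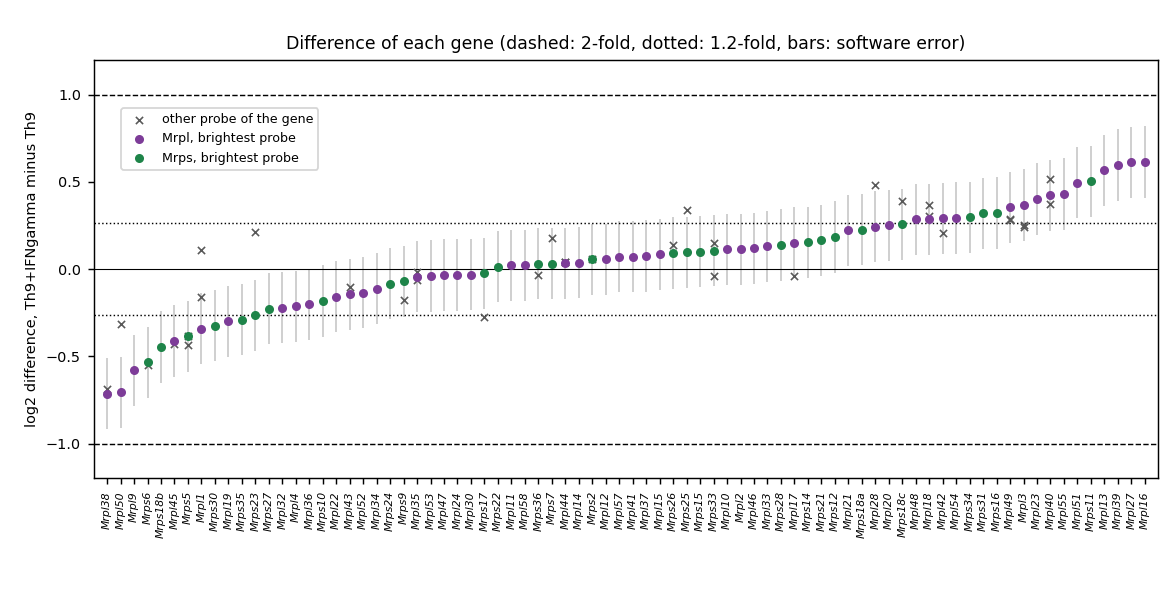
Log2 difference (Th9+IFNgamma minus Th9) of the 78 genes in rising order, with Mrpl genes in purple and Mrps genes in green by their brightest probe. Crosses mark other probes of the gene, and bars the error of 0.20 combined from the software's errors of both signals. All points lie inside the dashed 2-fold lines, and 48 of the brightest probes lie inside the dotted 1.2-fold lines.

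Across the 78 genes, the log2 difference correlated with the mean log2 signal (r = 0.31, against 0.13 over all measured genes), so brighter genes tended towards Th9+IFNgamma. Genes of the large subunit stood at both ends of the range. Mrpl16, which encodes a homologue of a bacterial large-subunit protein, had a scaled signal of 5378 in Th9+IFNgamma and 3514 in Th9, a log2 difference of 0.61. Mrpl27, whose bacterial counterpart reaches towards the peptidyl transferase centre, had 12685 in Th9+IFNgamma and 8300 in Th9 (0.61). These genes stood 1.53-fold apart, the widest differences towards Th9+IFNgamma among the 78. Mrpl39, which encodes a protein specific to mitochondria that resembles part of a threonyl-tRNA synthetase, had 5066 in Th9+IFNgamma and 3349 in Th9 (1.51-fold). Mrpl13, another homologue of a bacterial large-subunit protein, had 11045 in Th9+IFNgamma and 7458 in Th9 (1.48-fold). Both were higher in Th9+IFNgamma under each of the 11 other processing settings tried, as were Mrpl16 and Mrpl27. Each of these genes was read by 1 probe on 1 spot, so settings for probes, spots or dim signals could not change its value. A change of scaling by a common factor shifts all genes alike. Only quantile normalization, loess and normexp background correction could move these genes by themselves.

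Further large-subunit genes were higher by smaller amounts. Mrpl51, which encodes a protein specific to mitochondria, had 13351 in Th9+IFNgamma and 9468 in Th9 (1.41-fold), read by 1 probe. Mrpl55, also read by 1 probe, had 9675 in Th9+IFNgamma and 7180 in Th9 (1.35-fold), and it encodes a homologue of a bacterial protein that bridges the subunits. Mrpl40, which in humans lies in the chromosomal region deleted in DiGeorge syndrome, had 10769 in Th9+IFNgamma and 8034 in Th9 (1.34-fold). Its 3 probes all pointed the same way, with log2 differences from 0.37 to 0.52. The other Mrpl genes at least 1.2-fold higher were Mrpl23, Mrpl3, Mrpl49, Mrpl54, Mrpl42, Mrpl18 and Mrpl48, which were 1.22-fold to 1.32-fold higher and were named after their values were seen. Mrpl3, Mrpl18 and Mrpl49, with 3 probes each, and Mrpl42, with 2, had the same sign by every probe.

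Towards Th9, the widest difference was that of Mrpl38, which encodes a large-subunit protein related to phosphatidylethanolamine-binding proteins. It had 1112 in Th9+IFNgamma and 1824 in Th9, a log2 difference of -0.71, and its second probe gave -0.69. Mrpl50, specific to mitochondria, had 1747 in Th9+IFNgamma and 2850 in Th9 (-0.71). Its second probe gave a smaller difference of -0.32, so that the size for Mrpl50 depends on the probe. Mrpl9, a homologue of a bacterial large-subunit protein, had 1677 in Th9+IFNgamma and 2506 in Th9 (1.49-fold lower), read by 1 probe. Mrpl45, whose product lies at the exit of the peptide tunnel and anchors the ribosome at the inner membrane, had 7504 in Th9+IFNgamma and 9987 in Th9 (1.33-fold lower), with log2 differences of -0.43 and -0.41 by its 2 probes. Mrpl1, which in bacteria forms the stalk that moves transfer RNA out of the ribosome, had 1756 in Th9+IFNgamma and 2224 in Th9 (-0.34) by its brightest probe, while its dimmest probe, at 41.7 in Th9+IFNgamma and 38.7 in Th9, gave 0.11. Its remaining probe, at 529 in Th9+IFNgamma and 592 in Th9, gave -0.16, so that only the dimmest of the 3 had the other sign.

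The Mrps genes covered a narrower span, with log2 differences between -0.53 and 0.50, and 4 of the 29 were higher and 6 lower by 1.2-fold or more, both under the shares of 27.9% and 30.3% of all measured genes. Mrps6, which encodes a homologue of a bacterial platform protein, was lower, at 7248 in Th9+IFNgamma against 10501 in Th9 (1.45-fold), with log2 differences of -0.55 and -0.53 by its 2 probes. Mrps5, whose bacterial counterpart takes part in accurate decoding, had 5741 in Th9+IFNgamma and 7492 in Th9 (1.31-fold lower), and its 3 probes lay between -0.44 and -0.38. Mrps11, a platform protein as well, went the other way, with 2073 in Th9+IFNgamma and 1462 in Th9 (1.42-fold higher) by its single probe. Mrps12, which encodes a protein of the decoding centre and whose bacterial counterpart carries streptomycin resistance mutations, had 7310 in Th9+IFNgamma and 6433 in Th9, within 1.2-fold, although it passed that limit with normexp background correction (0.35) and with median scaling (0.30). Mrps23, specific to mitochondria, could not be given a direction, since its brightest probe gave -0.27 (2879 in Th9+IFNgamma, 3462 in Th9) and its other probe gave 0.22 (3394 in Th9+IFNgamma, 2924 in Th9). Mrps16, Mrps31 and Mrps34, all 1.23-fold to 1.25-fold higher, and Mrps35, 1.22-fold lower, were named after their values were seen. Mrps18b and Mrps30 were also lower by 1.2-fold or more.

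The paralogues Mrps18a, Mrps18b and Mrps18c all descend from 1 bacterial small-subunit protein, and each mitochondrial ribosome carries the products at different places. The product of Mrps18c keeps the bacterial position, that of Mrps18b sits elsewhere in the small subunit, and that of Mrps18a lies in the large subunit. Mrps18a had 3932 in Th9+IFNgamma and 3361 in Th9 (log2 difference 0.23), and Mrps18c had 5464 in Th9+IFNgamma and 4576 in Th9 (0.26, and 0.39 by its second probe). Mrps18b was the only lower paralogue, at 399.6 in Th9+IFNgamma and 544 in Th9 (-0.45), by its single probe. Mrps18b was lower by at least 1.2-fold under all 11 alternative settings. Those that choose between probes, average spots or filter dim probes could not change its value. Mrps18a and Mrps18c, within 1.2-fold by their brightest probes, passed that limit with median scaling (0.34 and 0.37). Mrps18c also passed it with normexp (0.36) and with the mean of its probes (0.32).

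Several genes with a role beyond the core of the ribosome were nearly equal on both arrays. Mrpl12 encodes the stalk protein that recruits translation factors and, in human cells, also binds the mitochondrial RNA polymerase. It had 15025 in Th9+IFNgamma and 14439 in Th9, a log2 difference of 0.06. Mrpl58 encodes a peptidyl-tRNA hydrolase built into the large subunit, which releases peptides from stalled ribosomes. It had 13877 in Th9+IFNgamma and 13670 in Th9 (0.02). Mrps36, in spite of its symbol, encodes a subunit of the oxoglutarate dehydrogenase complex of the citric acid cycle and not a stable part of the mitochondrial ribosome. It had 3121 in Th9+IFNgamma and 3054 in Th9 (0.03). Mrps30, a protein of the large subunit in spite of its symbol, was lower, at 5533 in Th9+IFNgamma against 6935 in Th9 (1.25-fold).

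The subunits and the evolutionary classes hardly differed in their medians. By symbol, the 49 Mrpl genes had a median log2 difference of 0.07 (SD across genes 0.32) and the 29 Mrps genes one of 0.06 (SD 0.25). Placed by structure, the 51 large-subunit genes and the 26 small-subunit genes each had a median of 0.07. The 31 large-subunit genes with a bacterial homologue had a median of 0.09 and the 20 specific to mitochondria 0.07. In the small subunit the medians were 0.06 for 17 genes with a bacterial homologue and 0.09 for 9 specific to mitochondria. The counts higher and lower by 1.2-fold or more were 7 and 3 for the large subunit with a bacterial homologue and 7 and 4 for its genes specific to mitochondria. In the small subunit they were 2 and 3 with a bacterial homologue and 2 and 2 for genes specific to mitochondria, where 1 of the lower genes is Mrps23. The shares over all measured genes were 27.9% higher and 30.3% lower.

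Where several probes read the same gene, they mostly told the same story. The 78 genes had 116 probes, of which 113 were well above background on both arrays. Of 26 genes with several such probes, 21 had the same sign by every probe, and the median distance between the lowest and the highest probe was 0.10 on the log2 scale. Across these 26 genes the brightest and the second probe correlated with r = 0.87 (rho = 0.86), as a description of probe pairs that share both RNA samples, and over 4415 genes of the array r was 0.84. Probes of opposite sign were found for Mrpl1, Mrpl17, Mrps23, Mrps33 and Mrps36, and those of Mrps23 lay farthest apart, by 0.48 on the log2 scale. A second probe of Mrpl57 passed the background limit in Th9+IFNgamma and not in Th9, which bounds its difference as at least 1.59-fold higher, while the bright probe of that gene gave 26737 in Th9+IFNgamma and 25441 in Th9. The annotation lists pseudogenes of Mrpl23, Mrpl27, Mrpl48 and Mrps36, so that a probe for these genes can take up RNA of a copy and their values stay uncertain.

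**Figure D3:**
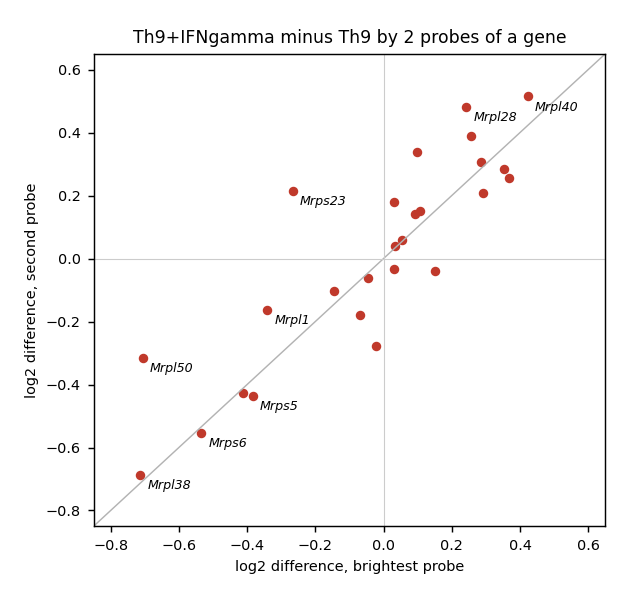
Log2 difference (Th9+IFNgamma minus Th9) by the brightest probe (horizontal axis) and the second probe (vertical axis) of the 26 genes with several detected probes, with a line of equality. The points follow the line (r = 0.87), and Mrps23 lies farthest from it.

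In 5 lists, the nuclear genes for the machinery around the mitochondrial ribosome held no measured gene at least 2-fold apart. Over all measured genes, 5.15% were higher and 7.42% lower by as much. The SD across genes was 0.39 for ribosome assembly and 0.43 for mitochondrial transcription and DNA maintenance. Both were wider than the 0.29 of the ribosomal protein genes. Of 5 ribosomal proteins with other names, Dap3, a small-subunit protein also known from apoptosis, was 1.21-fold lower in Th9+IFNgamma (17005 in Th9+IFNgamma, 20656 in Th9), and the other 4 lay within 1.2-fold. Of 15 translation factors, 1 was higher and 3 were lower by 1.2-fold or more, and the median log2 difference was -0.11. The shares over all measured genes were 27.9% higher and 30.3% lower by 1.2-fold. Tufm, the elongation factor that brings transfer RNA to the ribosome, had 12065 in Th9+IFNgamma and 16725 in Th9 (1.39-fold lower), and Mrrf, the ribosome recycling factor, was 1.37-fold lower.

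Of 26 genes for ribosome assembly and modification of its RNA, 6 were higher and 6 lower by 1.2-fold or more (median -0.12). Both counts were under the shares of 27.9% higher and 30.3% lower over all measured genes. Tfb1m, which methylates the small ribosomal RNA, was 1.70-fold higher (1941 in Th9+IFNgamma, 1142 in Th9). Mrm1, which methylates the large one, was 1.58-fold lower (2960 in Th9+IFNgamma, 4688 in Th9), and the assembly factor gene Rbfa was 1.57-fold lower. Of 22 genes for the charging of mitochondrial transfer RNA, 4 were at least 1.2-fold higher and 3 lower (median 0.04), also under those shares. The list includes the amidotransferase subunits Qrsl1, Gatb and Gatc, and Gars and Kars, which serve the cytosol as well. Qrsl1 and Gars were among the 4 higher genes. Of 13 genes for mitochondrial transcription and DNA maintenance, 4 were higher and 4 lower by 1.2-fold (median -0.02), near the same shares. Polg, the mitochondrial DNA polymerase, was 1.92-fold lower (2051 in Th9+IFNgamma, 3928 in Th9), while Tfam, which packages mitochondrial DNA and starts its transcription, was 1.34-fold higher (8598 in Th9+IFNgamma, 6430 in Th9). The genes named from these lists and among the regulators were chosen after their values were seen. No probe carried an accession that names a messenger RNA of mitochondrial DNA, and the products of mitochondrial translation were not analysed here.

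Among 10 measured regulators of nuclear genes for mitochondria, 1 was higher and 3 were lower by at least 1.2-fold (median 0.03), and none was 2-fold apart. The shares over all measured genes were 27.9% higher and 30.3% lower by 1.2-fold, and 5.15% and 7.42% by 2-fold. Nrf1, a transcription factor that binds promoters of many genes for mitochondria, came nearest, at 599 in Th9+IFNgamma and 312 in Th9 (1.92-fold higher). Pprc1, a coactivator of Nrf1, had 2915 in Th9+IFNgamma and 5106 in Th9 (1.75-fold lower). Gabpa, the ETS factor known as nuclear respiratory factor 2, had 906 in Th9+IFNgamma and 757 in Th9, just within 1.2-fold, and Myc, a growth regulator that acts on genes for ribosomes, was 1.23-fold lower (5239 in Th9+IFNgamma, 6454 in Th9).

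Promoter windows around the start, of the same length for every gene, were at hand for 69 of the 78 genes, from RefSeq on the GRCm38.p6 build, and they were searched on both strands for letters known from such factors. The ETS core CCGGAAG was in the window of 26 of 69 genes (37.7%), against 9.93% of 27025 genes with a window and 19.8% of the 9866 that were measured. The letters GCATGCGC of Nrf1 sites, which are also the end of a longer palindrome that has GC before them, were in 8 windows (11.6%, against 3.05% of all and 5.69% of measured genes), and the whole palindrome was in 3 (4.35%, against 1.07% and 2.21%). The YY1 core AAGATGGCG was in 8 (11.6%, against 1.64% and 3.47%). At least 1 of these stood in 36 windows (52.2%), against 26.6% of measured genes. A match is a description of letters and not a bound site. The 26 genes with the ETS core had a median log2 difference of 0.12 and the genes without it one of 0.04, while the 8 genes with GCATGCGC had a median of -0.02.

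The 150 bases upstream of the start are given for the 3 genes with a window that were highest in Th9+IFNgamma and the 3 that were lowest, (Mrpl38 had no window), and for Mrps11, which starts head to head with another gene of the family. Capitals mark the letters named above, on either strand, and matches outside these stretches are not shown. The stretches are 5′ to 3′ on the strand of the gene, on GRCm38.p6, at chr19:11770265-11770414 (plus strand) for Mrpl16, chr11:94653641-94653790 (plus) for Mrpl27, chr16:84735245-84735394 (minus) for Mrpl39, chr7:78782981-78783130 (plus) for Mrps11, chr4:49521084-49521233 (minus) for Mrpl50, chr3:94443186-94443335 (plus) for Mrpl9 and chr16:92058186-92058335 (plus) for Mrps6.
Mrpl16: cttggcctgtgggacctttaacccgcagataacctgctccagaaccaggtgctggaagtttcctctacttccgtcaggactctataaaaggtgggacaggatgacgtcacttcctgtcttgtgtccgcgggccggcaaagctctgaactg
Mrpl27: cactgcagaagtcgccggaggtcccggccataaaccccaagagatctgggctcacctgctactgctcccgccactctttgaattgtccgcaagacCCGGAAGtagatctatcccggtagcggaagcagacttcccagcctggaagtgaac
Mrpl39: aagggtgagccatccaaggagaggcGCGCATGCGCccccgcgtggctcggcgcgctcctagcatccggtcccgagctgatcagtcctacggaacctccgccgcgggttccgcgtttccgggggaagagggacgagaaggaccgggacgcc
Mrps11: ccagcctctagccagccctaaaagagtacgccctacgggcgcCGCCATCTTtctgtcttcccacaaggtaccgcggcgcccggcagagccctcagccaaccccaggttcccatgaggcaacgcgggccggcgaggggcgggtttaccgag
Mrpl50: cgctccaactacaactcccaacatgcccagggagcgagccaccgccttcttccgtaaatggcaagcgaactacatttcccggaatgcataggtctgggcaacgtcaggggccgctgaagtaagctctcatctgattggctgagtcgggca
Mrpl9: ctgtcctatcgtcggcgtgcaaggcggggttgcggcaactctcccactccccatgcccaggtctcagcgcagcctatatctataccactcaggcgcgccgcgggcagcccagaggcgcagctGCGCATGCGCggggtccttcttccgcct
Mrps6: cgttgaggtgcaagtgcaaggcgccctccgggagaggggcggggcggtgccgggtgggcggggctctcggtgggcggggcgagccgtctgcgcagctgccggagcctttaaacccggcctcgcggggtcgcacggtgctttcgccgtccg
The Nrf1 palindrome stood upstream of Mrpl39, which was 1.51-fold higher in Th9+IFNgamma, and of Mrpl9, which was 1.49-fold lower. The third gene with it, Mrpl32, had 1905 in Th9+IFNgamma and 2220 in Th9. Genes with the same palindrome thus differed in both directions. The ETS core stood upstream of Mrpl27, and none of the searched letters stood in the stretches of Mrpl16, Mrpl50 and Mrps6.

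For 24 of the genes, the window overlapped that of a gene on the other strand. The only pair inside the family was Mrps11 and Mrpl46, which start 42 bases apart in opposite directions. Mrps11 was 1.42-fold higher (2073 in Th9+IFNgamma, 1462 in Th9) and Mrpl46, a large-subunit gene, 1.09-fold higher (3513 in Th9+IFNgamma, 3235 in Th9). Of 21 such pairs with both genes measured, 12 had the same sign and 9 had opposite signs. Of the partners, 1 was at least 2-fold apart, while 5.15% of all measured genes were higher and 7.42% lower by as much. This partner was Eme1, a subunit of a DNA endonuclease, which starts 48 bases from Mrpl27. It had 919 in Th9+IFNgamma and 430.4 in Th9. Mrpl49 and Fau, a gene for a cytosolic ribosomal protein, start 192 bases apart and went opposite ways, with Mrpl49 at 3589 in Th9+IFNgamma and 2807 in Th9 and Fau 1.22-fold lower. Both partners were named after their values were seen.

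The cytosolic ribosomal proteins, which build the other ribosome of the cell, differed from this pattern. Of 83 measured genes, 82 were lower in Th9+IFNgamma at any size and 53 by at least 1.2-fold, against 30.3% of all measured genes. None of the 83 was 2-fold apart, while 5.15% of all measured genes were higher and 7.42% lower by as much. At any size, 49.6% of all measured genes were higher. Their median log2 difference was -0.32, below that of the mitochondrial ribosomal proteins by 0.39, a gap that any common scaling leaves as it is. The gap narrowed to 0.19 with quantile normalization and was 0.32 with loess, and in the other settings it ran from 0.39 to 0.43. Of the 78 mitochondrial ribosomal protein genes, 66 lay above the upper quartile of the cytosolic ones (-0.23). With quantile normalization 47 did so, and 75 cytosolic genes were lower and 7 higher in Th9+IFNgamma. Most cytosolic genes had brighter signals than any of the 78, and the families were not compared at matched signal. The cytosolic genes also lay closer together, with an SD across genes of 0.15.

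The nuclear subunits of the respiratory chain and ATP synthase lay nearer. Of 80 measured, 55 were higher in Th9+IFNgamma at any size and 19 of these passed 1.2-fold, while 6 were lower by that much. Their median log2 difference was 0.11 and the SD across genes 0.31. The only subunits at least 2-fold apart were isoforms of cytochrome c oxidase known from particular tissues. Cox6a2 was higher in Th9+IFNgamma, at dim signals of 55.9 in Th9+IFNgamma and 22.6 in Th9, not far above the detection limits. Cox6b2 was higher in Th9 (272 in Th9+IFNgamma, 647 in Th9). Over all measured genes, 49.6% were higher at any size, 27.9% were higher and 30.3% lower by 1.2-fold, and 5.15% and 7.42% by 2-fold. The median of the mitochondrial ribosomal proteins was below that of the respiratory chain by 0.04 in the main setting and by 0.03 to 0.08 in the others. With 1 array per condition, none of these gaps between families could be tested.

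**Figure D4:**
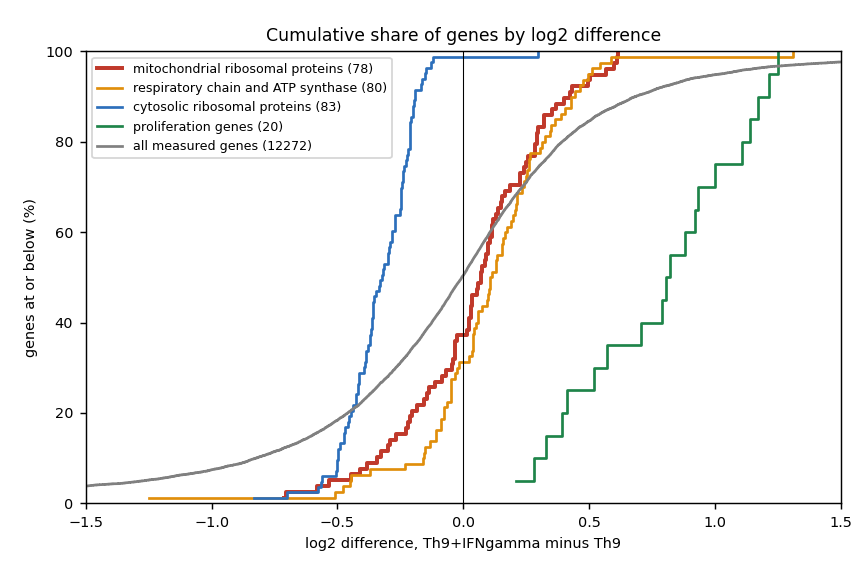
Cumulative share of genes (vertical axis, percent) at or below a log2 difference (Th9+IFNgamma minus Th9, horizontal axis, cropped at both ends) for 5 groups of genes. The curve of the 78 mitochondrial ribosomal proteins is steeper than that of all 12272 genes, runs beside that of the respiratory chain, and lies between the cytosolic ribosomal proteins (median -0.32) and the proliferation genes (median 0.81).

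Proliferation genes were higher in Th9+IFNgamma, 20 of 20 measured at any size and 19 by at least 1.2-fold, against 49.6% and 27.9% of all measured genes. Their median log2 difference was 0.81. Mki67, a marker of cycling cells that was named after its values were seen, had 44927 in Th9+IFNgamma and 25736 in Th9, and Top2a, a topoisomerase of dividing cells, was 2.32-fold higher. Their part in the values of the mitochondrial ribosomal proteins was not tested. All 9 markers of T cells were well above background on both arrays, and Cd4 itself had 502 in Th9+IFNgamma and 444 in Th9. Of 26 named markers of other blood cells, 12 were well above background on both arrays and 12 on neither, among them Lyz2, S100a8, S100a9, Pf4 and Pax5. The summed signal of these markers, in which bright probes weigh most, was 7786 in Th9+IFNgamma and 7215 in Th9, most of it from Klrd1 and Cd8a. The sums differed in direction between cell types. The sum for NK cell markers was 5238 in Th9+IFNgamma and 4374 in Th9, nearly all of it from Klrd1 (5215 in Th9+IFNgamma, 4331 in Th9). Klrb1c went the other way (20.5 in Th9+IFNgamma, 39.2 in Th9), and Ncr1 was well above background on neither array. Cd8a had 1338 in Th9+IFNgamma and 1074 in Th9. B cell markers summed to 930.0 in Th9+IFNgamma and 1317 in Th9, most of it from Cd79b (844 in Th9+IFNgamma, 1187 in Th9). Macrophage and monocyte markers summed to 91.03 in Th9+IFNgamma and 247 in Th9. The difference in that last sum rests on Adgre1, at 25.8 in Th9+IFNgamma and 186 in Th9, while Cd14 was higher in Th9+IFNgamma (26.4, against 21.3 in Th9). The part of such cells in the result was not tested.

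**Figure D5:**
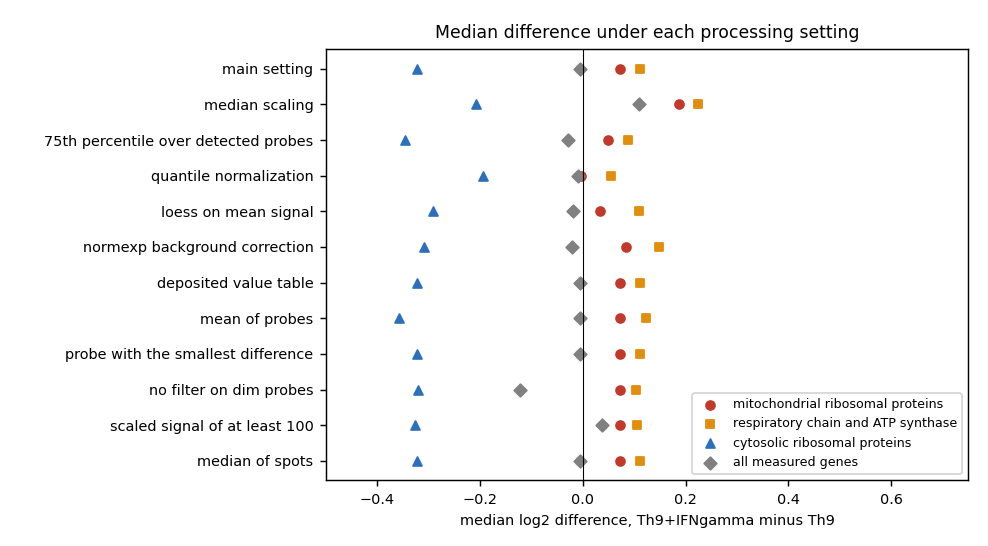
Median log2 difference (Th9+IFNgamma minus Th9, horizontal axis) of 4 groups of genes under the main setting and the 11 alternatives. The mitochondrial ribosomal proteins (red circles) lie between -0.003 and 0.19 and above the cytosolic ribosomal proteins (blue triangles) in every row.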

How the data were processed

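Splenic CD4 T cell RNA (500 ng, labelled with Cy3) was measured on 2 single-colour Agilent arrays, 1 per culture condition, which lay on the same slide and shared a scan, per the file headers. The authors' scanner intensity values come from Feature Extraction software of version 10.7.3.1 per the file headers (Agilent, 10.7 per the submitters' processing notes) and are its processed signals, background-subtracted and detrended within the array and not scaled between arrays. The flags deposited beside the intensities (other values of 0 or 1) mark outlier, saturated and well-above-background spots. A deposited table of log2 values equalled log2 of the median processed signal over the array's 75th percentile up to a constant (SD of the offset 0.0021 and 0.0016, column medians -4.05 for Th9+IFNgamma and -3.93 for Th9), so its scale and direction are known.

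Outlier spots and control spots were left out (3 probes lost), log2 signals were averaged over spots, and each array was scaled by its own 75th percentile (631.9 in Th9+IFNgamma, 567 in Th9). Scaled signals refer to a common 75th percentile of 598.6. RefSeq accessions without version matched 27050 of 41171 probes to 1 gene of the GRCm38.p6 annotation, and the array headers name mm9, so gene coordinates are given only with the RefSeq promoter windows. A gene is read by its brightest probe well above background on both arrays. For a probe detected on 1 array, the bound divides its signal there by the detection limit of the other array (or by the dim signal, if higher). Python 3.11.15 and limma 3.58.1 in R 4.3.3 were used, and the calculation was tested on simulated arrays.

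The genes described, the lists and the limits of 2-fold and 1.2-fold were chosen with earlier results of these data known. Genes named singly are the 8 widest differences in each direction, genes whose probes differ in sign with 1 probe past 1.2-fold, and Mrps18a, Mrps18b, Mrps18c, Mrpl12, Mrpl58, Mrps12, Mrps30 and Mrps36, and of other lists those at least 2-fold apart, at most 4 per list by size. Other genes are named outside this rule, after their values were seen. The 11 alternatives cover scaling, background correction, the deposited table, the probe read, the filter on dim probes and the averaging of spots. As the scanner files hold no mean signal column, normexp (offset 50) used the median signal and median background. With 1 array per group the number of arrays limits the precision, and no test was possible.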

Additional observations from a re-analysis of the deposited data

How the results depend on the processing

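No paired analysis was possible because each condition has 1 array, and for the same reason no array could be left out. The counts of 0 genes at least 2-fold apart held under all 11 alternatives in both directions. Not every alternative could change these genes, as none of the 78 was printed on several spots and the filters on dim probes left their values as they were. The number of genes at least 1.2-fold lower in Th9+IFNgamma was 12 and moved to 7 with median scaling, which shifts every gene alike. The share of all measured genes lower by as much moved from 30.3% to 23.8%. Over all settings the number at least 1.2-fold higher ran from 12 to 27, and the share of all measured genes from 24.9% to 36.3%. The median of the 78 genes ran from -0.003 (quantile normalization) to 0.19 (median scaling). Of the 24 genes named by rule, 2 turned direction when the probe with the smallest difference was read, namely Mrpl1 (0.11) and Mrps23 (0.22). Another 5 alternative values of these genes moved by more than 0.14, the spot SD over all repeated probes, dim ones included. Against the SD of 0.05 at the brightness of these genes, median scaling alone, with its shift of 0.11, moved each of them. In the main setting and all alternatives, 10 genes stayed higher and 7 stayed lower by 1.2-fold or more, and 54 of the 78 kept their sign. The share of all measured genes that did the same was not counted, so these counts cannot be read as a trait of the family. The signals of these genes are far above background, so dim probes limit only the second probes of a few genes.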
